A study of Mus musculus with 19 samples.

Results

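Microglia of the medial amygdala were taken as the cells that the authors' cell names put in the microglial class, without those that also stand in the authors' table of neurons. The rule kept 2117 of the 20679 cells in the authors' table of all cells. The class held 2129 cells in all, and the 12 left out had a median of 3119 UMIs. A UMI, or unique molecular identifier, tags 1 captured transcript, so UMIs count molecules and not reads.

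The cells were taken from male C57BL/6J mice, medial amygdala, and captured by Drop-seq, which pairs single cells with barcoded beads in droplets. The table of all cells holds 16 libraries made with Act-Seq, a dissociation designed to limit transcription while tissue is taken apart. They came from naive controls (6 libraries), mice after seizure (2), mice acutely stressed by immobilization (4) and mice acutely exposed to odors (4). A separate table compares dissociations and holds a saline-injected control and the same 2 seizure libraries by Act-Seq, and a saline-injected control and a seizure library by a conventional dissociation. Mice were 8 weeks old except those of seizure 1, immobilization 2 and 3, and odor 1 and 2, which were 9 weeks old, so no naive library has mice of 9 weeks. All mice lived under a reversed light cycle. The labels give neither the agent behind the seizures, nor the odors, nor whether each library of a group had its own animals; the p-values therefore reflect how libraries vary, which may be technical. The saline-injected library stands in the dissociation table alone, so seizure was set against naive mice in the table of all cells and against saline in the other.

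Microglia are the resident macrophages of the brain. They live long, depend on the receptor Csf1r, sense neurons through the fractalkine receptor Cx3cr1 and damage through the ADP receptor P2ry12, and make the complement protein C1q that tags synapses. They carry the glucocorticoid receptor, through which the adrenal stress hormone changes their transcription, and in the resting brain they keep a homeostatic gene program that fades when they are activated.

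The 2117 cells gave 2716064 UMIs, with a median of 1130 per cell (590 to 9270) and 728 genes. Libraries held 43 to 2189 cells and 4 to 226 microglia. Naive 6 had 4 microglia and entered no fit, so 5 naive, 2 seizure, 4 immobilization and 4 odor libraries were compared, with 860177, 403161, 731743 and 714667 microglial UMIs. The smallest of them were immobilization 4 (17 microglia), odor 4 (34) and naive 5 (35). Over all cells, 20 barcodes occurred in more than 1 library, and 1 microglial cell carried such a barcode. Counts were summed over the microglia of a library and are given as CPM, the UMIs of a gene per 1000000 microglial UMIs of that library. In such sums fewer microglia of a kind and less RNA per microglial cell cannot be told apart.

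The label held against its markers. Cx3cr1 stood at 5040.4 CPM over all microglia and at no more than 44.3 in any other class. P2ry12 stood at 4013 against at most 35.2, C1qc at 6969 against at most 114, and Csf1r at 4119 against at most 62.1. Of the microglia, 94.99% held a UMI of Cx3cr1 and 92.6% one of P2ry12. In astrocytes, which should lack both, the shares were 1.498% and 2.38% at a median of 1341 UMIs per cell. At least 1 UMI of the 4 genes was found in 98.4% of microglia, and 34 cells had none.

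The microglial profile stood far from that of the other classes. The authors' classes rest on the same genes, so these values are a description with no test. Of 802 genes with at least 200 CPM in microglia, 121 were over 10-fold and 61 over 50-fold above the highest other class. The 20 with the highest ratio included receptors for nucleotides (P2ry12, P2ry13), for chemokines and cytokines (Cx3cr1, Il10ra, Csf3r), for antibodies (Fcgr1, Fcgr2b) and for complement (C3ar1). Irf8 and Ikzf1, transcription factors of the myeloid line, and Tmem119, a microglial surface protein, were among them too. Il10ra, the receptor for the anti-inflammatory cytokine interleukin 10, led with 277 CPM in microglia and 1.144 in the highest other class.

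**Figure D1:**
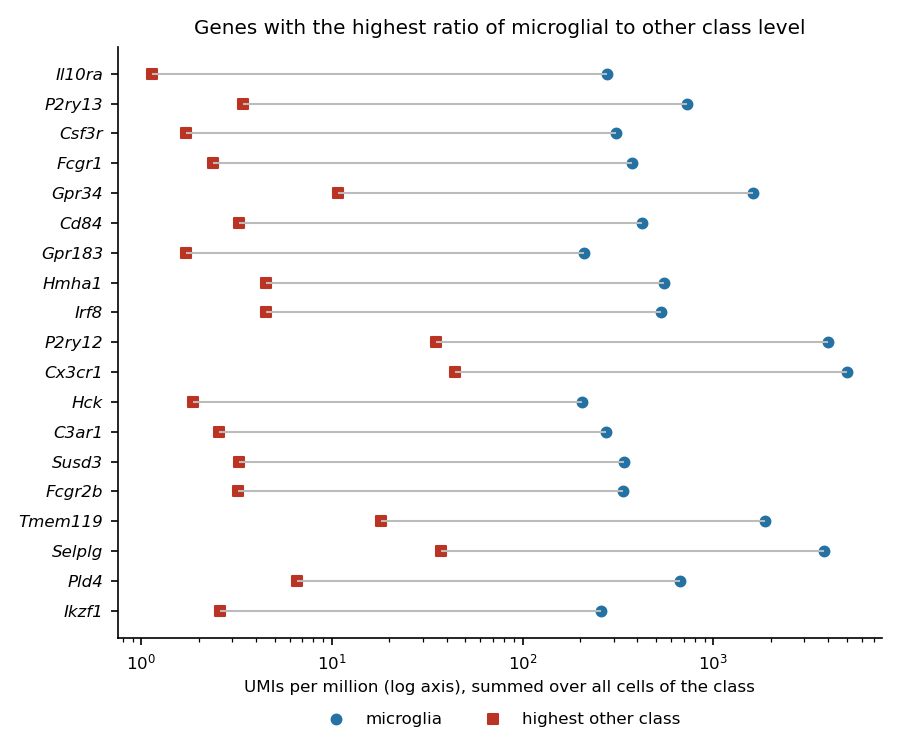
Of the 20 genes with the highest ratio of microglial level to the highest level of any other class, among genes with at least 200 CPM in microglia, 19 are plotted. The log horizontal axis gives CPM summed over all cells of a class; circles are microglia and squares the highest other class, and Cx3cr1, P2ry12 and Selplg have the highest microglial levels of those plotted.

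Whole gene groups were highest in microglia. Among all 7372 genes with at least 20 CPM there, 28.7% had their highest level in microglia. For the homeostatic surface and secreted genes it was 20 of 22, with 14 over 10-fold, and for the complement and phagocytic receptor genes 15 of 15 that reached 20 CPM, with 14 over 10-fold. Lysosomal genes, which encode the enzymes that digest what microglia engulf, were highest in microglia for 17 of 19, and the microglial transcription factors for 12 of 14. Sall1, a factor that holds microglia apart from other macrophages, had 374 CPM in microglia and 27.4 in astrocytes. Groups that respond to stimuli were not marked in this way: 4 of 15 glucocorticoid responsive genes, 3 of 10 immediate early genes and 0 of 9 heat shock genes had their highest level in microglia. Cst3, a secreted inhibitor of lysosomal proteases, took the most UMIs, with 59591 CPM.

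The class was not uniform. In 38 cells at least 2 of the macrophage genes Mrc1, Cd163, Pf4, Lyve1, Cbr2, Ms4a7 and F13a1, which mark macrophages of the brain's borders, had a UMI. Summed, these cells had 57506 CPM of the lipid carrier Apoe against 1785 in the other microglia, and 6829 of lysozyme Lyz2 against 234. Their Cx3cr1 was at 183 against 5140.1 and their Tmem119 at 36.6 against 1906. The cells were picked by macrophage genes, and the low Cx3cr1 and Tmem119 were not part of that choice. A further 15 microglia had a UMI of a lymphocyte marker, 12 of them of at least 2 such genes. The counts of called genes in the comparisons between groups were rerun without either kind of cell.

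The share of cells that were microglia differed little between groups. It was 10.3, 12.8, 7.44, 9.40, 15.2 and 9.30% in naive libraries 1 to 6, 9.01 and 10.2% after seizure, 10.3, 9.19, 10.8 and 9.34% after immobilization and 11.0, 11.5, 10.5 and 8.00% after odor exposure. The groups overlapped throughout, and the highest share came from naive 5, with 230 cells. Means were 10.8% ± 2.81 (SD, n = 6), 9.60% ± 0.843 (n = 2), 9.90% ± 0.760 (n = 4) and 10.2% ± 1.56 (n = 4). Two-sided exact permutation tests against naive gave p = 0.607, 0.595 and 0.767, each 0.767 after Benjamini-Hochberg adjustment over the 3 comparisons, where the designs allow no p below 0.0357, 0.00476 and 0.00476. Without naive 5 the immobilization and odor differences turned sign, to 0.0399 and 0.385 percentage points.

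Seizure was followed by higher levels of genes that glucocorticoids are known to induce. Of 6499 genes tested in microglia, 26 rose (0.4%) and 2 fell (0.0308%) against naive mice, or 0.431% of all tested (edgeR's quasi-likelihood test, Benjamini-Hochberg adjusted p under 0.05). Ddit4, Tsc22d3, Nfkbia, Sgk1, Per1 and Dusp1 were among those that rose, and the arginine- and serine-rich protein gene D4Wsu53e and the tubulin gene Tubb2a were the 2 that fell. The libraries of the groups did not overlap for 26 of the 28 and for 9.62% of all genes. An unadjusted p under 0.05 was reached by 364 genes, and DESeq2 called 21. Without seizure 2 the test called 14 genes, all of them higher, and without seizure 1 it called 18. Of the 26 raised genes, 10 had their highest level in a class other than microglia.

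Ddit4 encodes an inhibitor of mTORC1, the kinase complex that drives growth. It was at 504 and 462 CPM in seizure libraries 1 and 2 and at 35.7, 112, 38.3, 23.7 and 0 in naive libraries 1 to 5. Both seizure libraries lay far above the highest naive one, and naive 5 had no UMI. The means were 483 ± 29.4 (SD, n = 2) and 42.0 ± 42.0 (n = 5), with log2 fold change 3.18, SE 0.32, adjusted p = 1.70e-11.

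Tsc22d3, a leucine zipper protein through which glucocorticoids restrain inflammation, was at 597 and 1084 CPM after seizure and 118, 164, 159.7, 79.0 and 42.4 in naive microglia. The seizure libraries differed from each other by more than the naive ones did, yet both lay above all 5 (log2 fold change 2.72, SE 0.25, adjusted p = 8.60e-13). Endothelial cells had a higher level over all cells than microglia, 1064 against 603. Summed endothelial markers in microglia were at 41.5 to 59.7 CPM in seizure libraries and 0 to 281 in naive ones.

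Nfkbia encodes the inhibitor that holds NF-kappaB in the cytoplasm, and both NF-kappaB and glucocorticoids raise it. It was at 1058 and 1268 CPM after seizure and 239, 260.3, 256, 261 and 42.4 in naive libraries. All naive values lay below both seizure values, and naive 5 was lowest. The log2 fold change was 2.31 (adjusted p = 5.52e-12). Of the 8 NF-kappaB feedback genes tested Nfkbia alone passed, and the median of the 8 was 0.24 on the log2 scale against -0.013 over all genes.

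Sgk1, a kinase induced by glucocorticoids that regulates ion transport, was at 1114 and 1161 after seizure and at 449.6, 517, 319, 339.8 and 254 CPM in naive microglia, with no overlap (log2 fold change 1.52, SE 0.20, adjusted p = 3.31e-07). Sgk1 is abundant in oligodendrocytes, at 1766 CPM, and the summed oligodendrocyte markers in microglia were at 572 to 657 CPM in seizure libraries and at 467 to 664 in naive ones. Per1, a clock protein gene that glucocorticoids induce through its promoter, was at 111 and 207 after seizure and 7.14, 40.0, 12.8, 7.90 and 0 in naive libraries (log2 fold change 3.14, SE 0.44, adjusted p = 1.02e-06). Dusp1, the phosphatase that switches off p38 and JNK kinases, was almost silent in naive microglia, with 1 UMI among 860177, and had 33 among 403161 after seizure. That is a ratio of 70.4 with an exact 95% counting interval of 11.8 to 2864, and the test gave an adjusted p of 1.30e-04; it did not pass in DESeq2.

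The 250 bases before the annotated starts of Nfkbia, Per1 and Dusp1 are shown because these glucocorticoid responsive genes rose after both seizure and immobilization and their promoters hold a searched motif. They come from RefSeq on build GRCm38.p6, the assembly of mm10, 5′ to 3′ on the gene's own strand. Nfkbia is read from chr12:55492648-55492897 (minus strand), Per1 from chr11:69098699-69098948 (plus strand) and Dusp1 from chr17:26508473-26508722 (minus strand). Capitals mark a kappaB-type motif in Nfkbia, an E-box in Per1, and a cAMP response element followed by an E-box in Dusp1.
Nfkbia: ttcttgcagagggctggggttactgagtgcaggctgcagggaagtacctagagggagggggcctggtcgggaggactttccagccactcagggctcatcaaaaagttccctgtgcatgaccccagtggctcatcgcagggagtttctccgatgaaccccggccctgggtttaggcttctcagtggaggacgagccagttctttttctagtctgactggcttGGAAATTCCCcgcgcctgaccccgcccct
Per1: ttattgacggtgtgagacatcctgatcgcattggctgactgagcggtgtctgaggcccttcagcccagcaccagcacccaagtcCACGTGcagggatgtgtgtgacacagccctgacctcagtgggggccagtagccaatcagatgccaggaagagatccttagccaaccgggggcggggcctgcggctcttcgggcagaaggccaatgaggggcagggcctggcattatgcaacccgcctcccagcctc
Dusp1: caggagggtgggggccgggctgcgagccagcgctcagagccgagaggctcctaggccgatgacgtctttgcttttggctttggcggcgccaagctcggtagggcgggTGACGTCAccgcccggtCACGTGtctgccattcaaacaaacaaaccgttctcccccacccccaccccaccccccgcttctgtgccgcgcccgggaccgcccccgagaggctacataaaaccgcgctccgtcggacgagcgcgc
The letters searched on both strands were GGG and TTCC with any 3 bases between (kappaB-type), CACGTG (E-box, the site of clock factors), TGACGTCA (cAMP response element), and GNACA and TGTNC with any 3 bases between (the palindrome of the glucocorticoid receptor). In Dusp1 the 2 motifs do not overlap. The same windows of Tsc22d3, Ddit4 and Sgk1, which are not shown, held 0 matches to any of the searched motifs. Of all 27025 promoters of this length 4.60%, 6.05%, 1.62% and 0.381% held them. Of the 24 genes raised by seizure that had a promoter in the table, 1, 3, 2 and 1 held them, the last being Mt1. Of the 46 raised by immobilization it was 1, 7, 1 and 0. Matches are letters in a window, and neither a match nor its absence was tested for binding.

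Rgs1, Tagap, Arrdc3 and Kcnk6 were raised genes outside the hormone list. Rgs1, which shortens chemokine receptor signals and is near 0 in all other classes, was at 162 and 136 CPM after seizure and 21.4, 36.0, 19.2, 31.6 and 63.6 in naive microglia, with no overlap (log2 fold change 2.35, SE 0.38, adjusted p = 4.07e-05). Tagap, a GTPase-activating protein of immune cells, was at 239 and 243 against 49.95, 76.1, 25.6, 63.2 and 84.8 (log2 fold change 2.08, SE 0.32, adjusted p = 8.16e-06). Arrdc3, an arrestin-like adaptor, was at 158 and 148 against 14.3, 24.0, 25.6, 15.8 and 21.2 (log2 fold change 2.93, SE 0.42, adjusted p = 2.75e-06). All 3 separated the groups completely. Cebpb, a transcription factor of myeloid inflammation and metabolism that is on the hormone list, was at 371 and 533 against 132, 204, 275, 103 and 212 (log2 fold change 1.32) and lost its call without seizure 2. Kcnk6, a leak potassium channel, rose by a log2 of 1.001 (adjusted p = 0.0103), and that call was lost without either seizure library or naive 1.

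The genes that fell after seizure stand on none of the gene lists. D4Wsu53e, also known as Rsrp1, was at 1067 and 681 CPM after seizure and 1702, 2179, 1732, 1786 and 1463 in naive microglia, a drop with no overlap (log2 fold change -1.002, SE 0.18, adjusted p = 3.89e-04) that did not pass without seizure 2. Tubb2a, a beta-tubulin gene with its highest level in cells of the neuron class, was at 81.1 and 77.0 against 235, 164, 243, 300.3 and 127 (log2 fold change -1.45, SE 0.32, adjusted p = 0.00766), and the call was lost without either seizure library. Summed neuron markers in microglia were at 207 to 265 CPM in seizure libraries and 71.1 to 378 in naive ones.

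Among the 3 comparisons with naive mice the most genes were called for immobilization. It had 4 fitted libraries and seizure 2, so the counts of calls do not rank the stimuli. After immobilization 54 genes rose (0.831%) and 41 fell (0.631%) against naive mice, 1.46% of the 6499 tested by edgeR's quasi-likelihood test. The glucocorticoid responsive genes Ddit4, Tsc22d3, Fkbp5, Nfkbia, Sult1a1, Cebpb, Per1 and Dusp1 were raised, and genes of the homeostatic program, with P2ry12, P2ry13 and Gpr34 among them, were lowered. The libraries of the groups did not overlap for 57 of the 95 and for 3.51% of all genes. An unadjusted p under 0.05 was reached by 555 genes, and DESeq2 called 69. Of the 54 raised genes 18 had their highest level in another class, and 33 of the 41 lowered genes had it in microglia, beside the 28.7% of genes with at least 20 CPM given above. That share is over 7372 genes and not over the 6499 tested, so it is a rough guide only. Between 68 and 106 genes were called when any 1 library was left out, and 43 of the 95 passed in every such fit. In the other alternative fits, with DESeq2 and age as a covariate among them, 48 of the 95 passed throughout. With age as a covariate, 29 of the genes followed across fits had the same result and 7 a weaker one.

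Ddit4 was at 940.1, 828, 856 and 528 CPM in immobilization libraries 1 to 4, all above every naive library (log2 fold change 3.91, SE 0.27, adjusted p = 1.75e-18). Tsc22d3 was at 1307, 1057, 1186 and 659.6, again with no overlap (log2 fold change 3.10, SE 0.21, adjusted p = 1.75e-18), and the lowest of the 4 was immobilization 4, the library of 17 microglia. Fkbp5 encodes a chaperone that binds the glucocorticoid receptor and dampens it, a feedback that makes the gene a standard readout of the hormone. It was at 546, 696, 850.0 and 659.6 CPM after immobilization and 74.9, 200.2, 121, 134 and 21.2 in naive libraries, with every stressed library above every naive one (log2 fold change 2.42, SE 0.24, adjusted p = 2.30e-11). No other class exceeded 39.8 CPM of Fkbp5, against 367 in microglia. Sult1a1, a sulfotransferase, was at 529, 509, 503 and 352 against 128, 204, 192, 166 and 127 (log2 fold change 1.53, SE 0.20, adjusted p = 2.56e-07). Immobilization 4 was the lowest of its group here too, and still above all naive libraries.

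**Figure D2:**
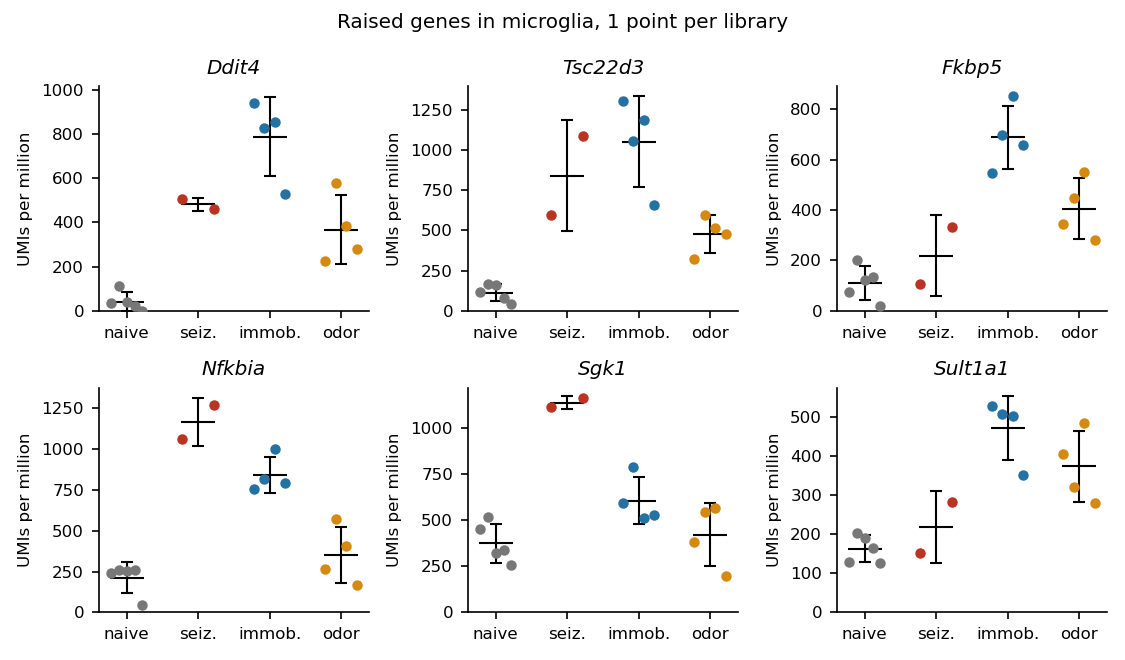
Levels of 6 raised genes in microglia, in CPM on a linear axis from 0, with 1 point per library and bars for the mean ± SD of naive (n = 5), seizure (n = 2), immobilization (n = 4) and odor (n = 4) libraries. Ddit4 is highest after immobilization (788 ± 179.9), whereas Sgk1 is highest after seizure (1137 ± 33.3).

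Nfkbia was at 753, 815, 1001 and 792 CPM after immobilization, above all naive values (log2 fold change 1.79, adjusted p = 1.27e-09), and again no other NF-kappaB feedback gene of the 8 passed. Per1 was at 115, 89.2, 123 and 176 (log2 fold change 2.61, SE 0.41, adjusted p = 1.35e-05). Rgs1 was at 169.7, 149, 145 and 132 and Cebpb at 455, 429, 542 and 528, both without overlap with naive libraries (adjusted p = 2.70e-06 and 6.64e-06). Dusp1 had 27 UMIs among 731743 against 1 in naive microglia, a ratio of 31.7 with a counting interval of 5.23 to 1299, and immobilization 4 had none. Its adjusted p was 0.00571 in edgeR, and DESeq2 did not call it.

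Pnpla2, Glul and Pik3ip1, which stand outside the hormone list, rose as well, while of 10 cholesterol and lipid genes tested 0 rose and 1 fell. Pnpla2, the lipase that starts the breakdown of stored triglyceride, was at 159.5, 199.5, 224 and 87.9 CPM after immobilization and 42.8, 48.1, 12.8, 55.3 and 42.4 in naive microglia, with no overlap (log2 fold change 2.14, SE 0.32, adjusted p = 6.64e-06). Glul, glutamine synthetase, was at 2372, 1991, 2662 and 1099 against 992, 1093, 1163, 964 and 1315 (log2 fold change 0.95, SE 0.15, adjusted p = 1.37e-05), with immobilization 4 inside the naive range. Glul falls outside the rule for named genes and was chosen after its values were seen. It is an astrocyte gene at 4059 CPM, and summed astrocyte markers in microglia ran from 704 to 2495 in immobilization libraries and from 869 to 1700 in naive ones; their part in the Glul result was not tested. Pik3ip1, an inhibitor of PI3 kinase, was at 74.7, 50.9, 117 and 44.0 against 7.14, 20.02, 0, 15.8 and 0 (log2 fold change 2.78, SE 0.58, adjusted p = 0.00159), without overlap but not called by DESeq2 or without immobilization 3.

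The lowered genes held receptors by which microglia read their surroundings. P2ry12 was at 3621, 3133, 3529 and 2287 CPM after immobilization and 4253, 4297, 4294, 4702 and 4305 in naive microglia. Every stressed library lay below every naive one, though the step was small (log2 fold change -0.48, SE 0.12, adjusted p = 0.0186). P2ry13, its neighbour in the family, was at 577, 522, 565 and 572 against 945, 781, 773, 956 and 933 (log2 fold change -0.69, SE 0.15, adjusted p = 0.00371) and passed when any library was left out. Gpr34, a receptor for lysophosphatidylserine, was at 1299.9, 1185, 1488 and 1319 against 2019, 1754, 1821, 1928 and 1887 (log2 fold change -0.56, SE 0.13, adjusted p = 0.00671). All 3 receptors separated the groups. The P2ry12 call was lost without naive 4, seizure 1, immobilization 2 or immobilization 4, and that of Gpr34 without immobilization 2. Seizure libraries stood at 3747 and 4182 CPM of P2ry12 and 708 and 758 of P2ry13. For both genes they too lay below every naive library, with no call.

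Of 14 microglial transcription factors tested 2 fell in the same comparison (Irf8 and Maf) and 0 rose, and of 10 TGF-beta signalling genes 1 fell (Nrros) and 0 rose. Median log2 fold changes were -0.23 and -0.13, and 5 of the 14 and 3 of the 10 were above 0. Irf8, which drives the development of microglia, was at 369.9, 391, 453 and 484 against 721, 645, 658, 569 and 551 CPM (log2 fold change -0.70, adjusted p = 0.00671). Maf, a factor of the mature microglial state, was at 1035, 1185, 1113 and 1187 against 1477, 1654, 1457, 1699 and 1399.5 (log2 fold change -0.52, adjusted p = 0.0227). Neither overlapped between the groups. The Irf8 call was lost without naive 1, immobilization 1 or immobilization 2, and that of Maf without any of 6 libraries (naive 2 and 4, seizure 1 and 2, immobilization 1 and 3). Seizure libraries were also below all naive ones for both genes, with 448 and 426 CPM of Irf8 and 1067 and 1125 of Maf, but neither passed there (adjusted p = 0.507 and 0.432). Nrros encodes the protein that anchors latent TGF-beta1 on microglia. It was at 44.1, 59.4, 61.5 and 44.0 after immobilization and 175, 140.2, 185, 150.1 and 148 in naive microglia, and the highest stressed library lay well below the lowest naive one (log2 fold change -1.61, SE 0.29, adjusted p = 1.96e-04), which passed whichever library was left out. G530011O06Rik, a noncoding RNA, was at 23.8, 17.0, 16.8 and 0 against 74.9, 176, 134, 150.1 and 84.8 (log2 fold change -2.74, SE 0.40, adjusted p = 2.70e-06), again without overlap. Jun, an immediate early factor, was at 81.5, 119, 72.7 and 87.9 against 164, 172, 179, 182 and 382 (log2 fold change -1.09, SE 0.27, adjusted p = 0.012), naive 5 held its highest value, and the call was lost without immobilization 1 or 3.

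**Figure D3:**
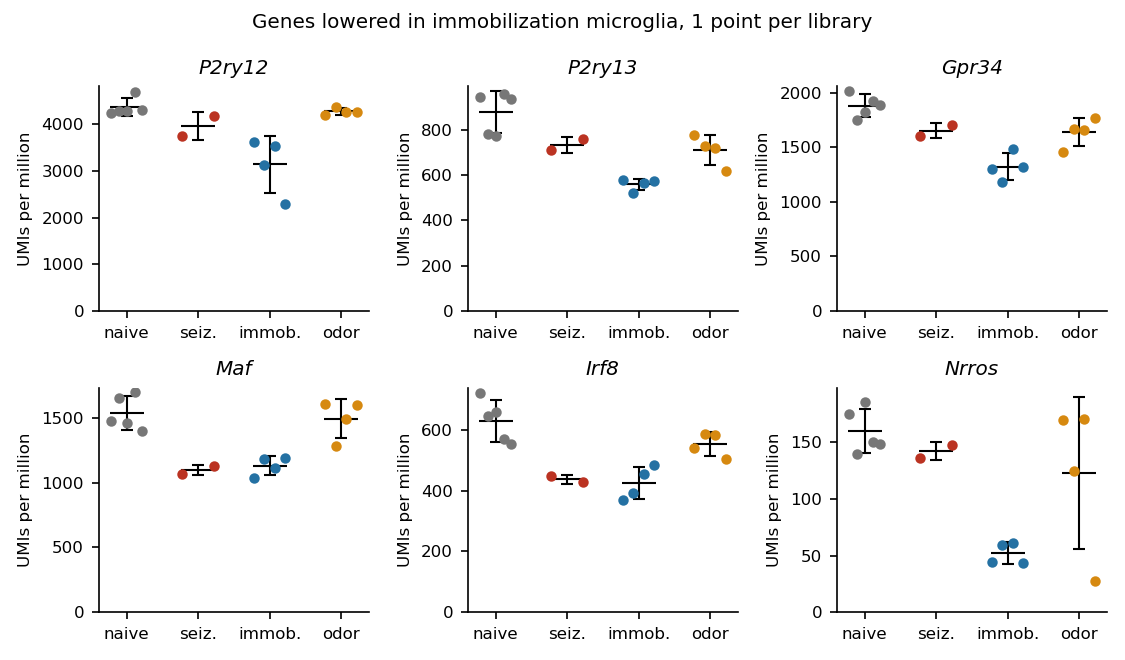
Levels of 6 genes lowered in immobilization microglia, in CPM on linear axes from 0, with 1 point per library and bars for the mean ± SD over 5 naive, 2 seizure, 4 immobilization and 4 odor libraries. Nrros falls from 159.8 ± 19.3 in naive to 52.3 ± 9.52 in immobilization libraries, while the seizure libraries stay at 142 ± 8.14.

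Of 22 homeostatic surface and secreted genes tested 5 fell after immobilization (P2ry12, P2ry13, Gpr34, Olfml3 and Marcks) and none rose. Their median log2 fold change was -0.14, beside -0.013 over all genes. After seizure the count was 0 of 22 with a median of -0.05, and after odor exposure 0 of 22 with a median of -0.11. In the direct comparisons, seizure against immobilization had 0 calls among the 22 (median 0.12) and immobilization against odor 0 (median -0.04). Olfml3 and Marcks lost their calls in more than 5 of the fits that left out a library. Of the other identity genes Cx3cr1 was at 4839.7, 4386, 4435 and 4485 CPM after immobilization, 4852 and 4561 after seizure and 5616, 5367, 5412, 6749 and 5513 in naive microglia. Both groups lay below every naive library, and neither comparison called the gene (adjusted p = 0.0799 and 0.958). C1qc at 6944, 6772, 7695 and 6420.1 after immobilization against 7147, 6736, 5572, 6938 and 5810.1 in naive libraries, and Csf1r at 4012, 3965, 4563 and 4221 against 4324, 4065, 3821, 4354 and 3923, overlapped between the groups. Among 17 cytoskeleton and motility genes Coro1a fell after immobilization, and among 10 cholesterol and lipid genes Mylip did. Complement and phagocytic receptor genes, lysosomal genes, genes of disease-associated microglia, antigen presentation genes, interferon responsive genes, heat shock genes, ATF4 genes and cell division genes had 0 calls in seizure, immobilization and odor alike. Their medians lay between -0.88 (cell division genes after seizure, 9 tested) and 0.26 (heat shock genes after odor, 9 tested).

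Some calls rested on few cells. Ccl5, a chemokine of T cells and activated microglia, had 1 UMI in immobilization microglia and 46 in naive ones (adjusted p = 0.00561), and 19 of the 46 came from 1 cell of naive 5. In each of the 4 naive libraries with Ccl5, 1 cell held it together with a lymphocyte marker and 1 held it with no UMI of the 4 identity genes, and without lymphocyte-marker cells the gene did not reach the filter on low counts and was not tested. Ccl4, a chemokine that microglia make, had 65 UMIs in naive microglia and 1 after immobilization, a ratio of 55.3 with a counting interval of 9.58 to 2217. Of these 65 UMIs 31 sat in 1 cell of naive 3 and 23 in 1 cell of naive 1, naive 2 had 2 UMIs and naive 4 and 5 none, so the groups overlapped. Apod, a lipid carrier of mural and oligodendrocyte lineage cells, was at 601, 12.7, 16.8 and 352 CPM after immobilization and 3.57, 20.02, 166, 0 and 21.2 in naive microglia; without immobilization 1 its log2 fold change turned from 2.52 to -0.20. The 38 macrophage-pattern cells had 5730.5 CPM of Apod and the other microglia 10.9, and without those cells the gene did not reach the filter on low counts, so it was not tested there.

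Markers of border macrophages were measured beside these results. Their summed level in microglia was 632 to 2023 CPM after immobilization, 417 to 1381 after odor exposure, 461 to 634 after seizure and 382 to 1067 in naive libraries. Of the 9 markers all were detected, and Stab1, a scavenger receptor that microglia also carry, was the 1 called (log2 fold change 0.89, adjusted p = 0.00159, immobilization), a call lost without immobilization 1. Without the 267 microglia that held at least 2 UMIs of these markers 79 genes were called for immobilization in place of 95, 29 for seizure in place of 28 and 6 for odor, as with them. Without only the 38 macrophage-pattern cells, a removal chosen after seeing the data, the counts were 98, 32 and 6. Without lymphocyte-marker cells they were 94, 29 and 6.

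Odor exposure raised a subset of the hormone genes. Against naive mice 5 genes rose (0.0769%) and 1 fell (0.0154%), 0.0923% of the 6499 tested. Libraries did not overlap for 5 of the 6 and for 1.94% of all genes, 313 had an unadjusted p under 0.05 and DESeq2 called 4. The labels say that odor libraries served cell typing and not the comparison of immediate early genes, so this comparison is an added one. Ddit4 was at 224, 576, 386 and 281 CPM in odor libraries 1 to 4, all above the naive range (log2 fold change 2.80, SE 0.29, adjusted p = 2.81e-10). Tsc22d3 was at 320.4, 598, 517 and 477, Fkbp5 at 343, 447, 553 and 281 and Sult1a1 at 407, 323, 487 and 281. None of the 4 genes overlapped with naive microglia, and log2 fold changes were 1.88, 1.76 and 1.19 (adjusted p = 5.03e-08, 4.34e-06 and 4.70e-04). These 4 calls held whichever library was left out.

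The other 2 calls after odor exposure concern genes of other classes. Ptgds, the prostaglandin D synthase of oligodendrocytes and meninges, was at 453, 452, 61.4 and 28.1 CPM against 149.9, 40.0, 83.1, 63.2 and 42.4 (log2 fold change 1.76, SE 0.36, adjusted p = 0.00731), with odor 3 inside the naive range and odor 4 below it. Fabp7, a fatty acid carrier of glial precursors, was at 18.3, 34.4, 13.2 and 0 against 74.9, 76.1, 249, 47.4 and 212 (log2 fold change -2.47, SE 0.47, adjusted p = 0.00285). Oligodendrocytes hold 20957 CPM of Ptgds and oligodendrocyte precursors 1075 of Fabp7. The 38 macrophage-pattern cells had 4614 CPM of Ptgds and the other microglia 65.4. Neither gene was called without microglia that held UMIs of other classes' markers, nor by DESeq2. Ptgds was also lost without naive 2, odor 1 or odor 2, and Fabp7 without naive 3, odor 1 or odor 3.

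Set side by side, the glucocorticoid responsive genes had the most called members of any list in the seizure, immobilization and odor comparisons. The list was chosen with earlier results of these data known, and 14 of its 25 genes had enough counts to be tested. Of the 14 tested, 8 rose after seizure, 8 after immobilization and 4 after odor exposure, and none fell. Dusp1, with 1 UMI in naive microglia, had almost no room to fall. Medians of the 14 were 1.13, 1.44 and 0.61 on the log2 scale beside -0.013, -0.013 and -0.019 over all genes. Some lists with few or no calls had larger medians: the 9 border macrophage markers were at -1.23 after seizure, with 0 calls, and at 0.77 after odor exposure, with 0 calls, and the 2 lymphocyte markers were at -2.68 after immobilization, with 0 calls. Among 11 immediate early genes Btg2 and Dusp1 rose after seizure, Dusp1 rose and Jun and Ier5 fell after immobilization, and 0 passed after odor exposure. Among 16 mTORC1, FoxO and autophagy genes Ddit4 rose in each comparison and Pik3ip1 after immobilization, and among 8 clock genes Per1 rose after seizure and immobilization. The glucocorticoid list overlaps in Nfkbia, Per1, Dusp1 and Ddit4 with the lists of NF-kappaB, clock, immediate early and mTORC1 genes. The 3 comparisons share their naive libraries, so a naive library that is low raises all 3. Of the 28 genes called after seizure 18 were also called after immobilization, 64.3% of the first list and 18.9% of the second.

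**Figure D4:**
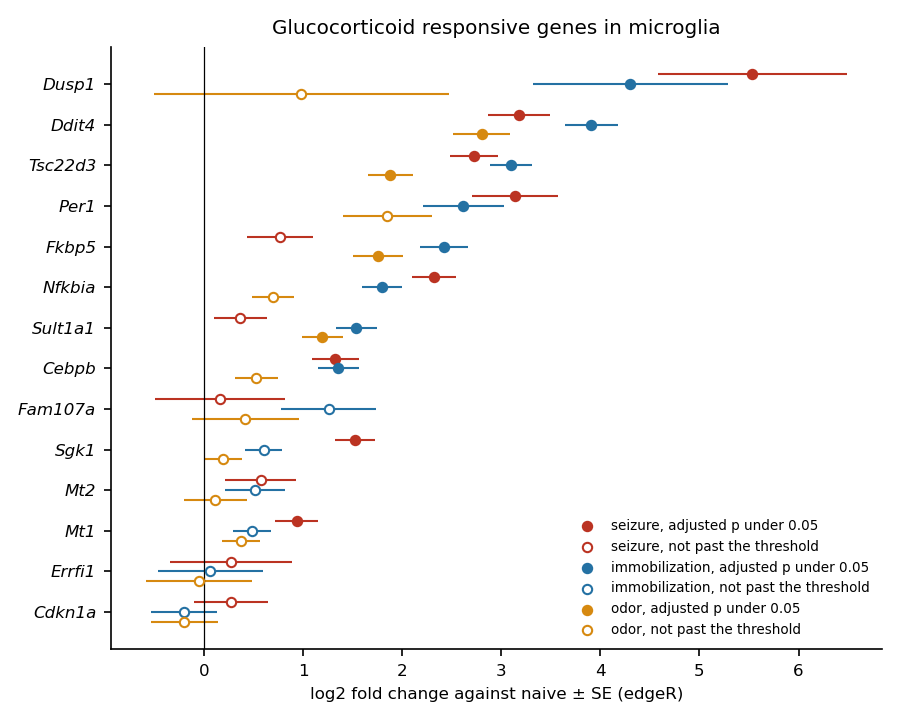
Log2 fold changes against naive microglia ± SE (edgeR) of the 14 tested glucocorticoid responsive genes after seizure, immobilization and odor exposure; filled points have an adjusted p under 0.05 and open ones do not. Ddit4 is filled in all 3, at 3.18, 3.91 and 2.80, and Fkbp5 is filled for immobilization (2.42) and odor (1.76) but open for seizure (0.76).

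Shares of cells with a UMI were compared at equal depth, as a description over pooled cells with no test. With each cell thinned to 500 UMIs, which left out no cell, a UMI of Ddit4 was found in 1.61% of naive, 18.6% of seizure, 34.8% of immobilization and 14.8% of odor microglia (unthinned 5.78, 36.1, 62.2 and 31.4%). Single libraries ran from 0 to 2.66% in naive, 13.9 to 22.2% in seizure, 23.5 to 38.1% in immobilization and 9.60 to 19.9% in odor microglia, with no overlap with naive ones. Tsc22d3 was found in 5.62, 29.6, 41.9 and 20.5%. Its lowest immobilization library was at 5.88%, 1 of the 17 cells of immobilization 4, which is inside the naive range of 2.33 to 8.70%. Fkbp5 was found in 6.10, 8.88, 25.4 and 19.0%, and its seizure libraries, at 3.61 and 15.97%, overlapped with naive ones at 2.86 to 10.1%. Nfkbia went from 10.9% in naive to 39.3% in seizure and 32.0% in immobilization microglia. Oligodendrocytes, thinned alike, held Fkbp5 in 2.29, 0.755, 2.27 and 2.10% and Tsc22d3 in 10.3, 7.17, 9.66 and 11.2%, below microglia after immobilization for both. They held Ddit4 in 7.62, 15.8, 16.9 and 14.3% and Nfkbia in 6.86, 23.8, 29.4 and 19.3%. For Ddit4 the lowest immobilization library (5%) and the lowest odor library (9.09%) lay inside the range of naive oligodendrocytes, 2.97 to 12.7%, and the seizure libraries (14.3 and 17.3%) lay above it. For Nfkbia the naive range was 0 to 15.1%, and the lowest stimulated library was at 16.5%, after odor exposure. Their median depth was 2181 UMIs before thinning, and 1130 in microglia. Fos, the immediate early gene that marks active neurons, was found in 0, 0.296, 0 and 0.170% of thinned microglia.

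Seizure and immobilization differed directly in 11 genes. Of the 6499 tested 7 were higher after seizure (0.108%) and 4 after immobilization (0.0615%), 0.169% in all (edgeR), where 392 had an unadjusted p under 0.05 and DESeq2 called 3. The pro-inflammatory cytokine gene Il1a and the kinase gene Sgk1 were higher after seizure, and Fkbp5, Sult1a1 and the lipase gene Pnpla2 after immobilization. Fkbp5 was at 107 and 332 CPM in the seizure libraries, of which seizure 1 lay in the naive range, and at 546, 696, 850.0 and 659.6 in the stressed ones (log2 fold change -1.65, SE 0.30, adjusted p = 0.00111). Sgk1 at 1114 and 1161 lay above 594, 789.7, 514 and 528 (log2 fold change 0.93, SE 0.21, adjusted p = 0.0236). Il1a was at 89.6 and 113 after seizure, 27.2, 17.0, 28.0 and 0 after immobilization and 85.6, 44.1, 51.1, 55.3 and 0 in naive microglia, so seizure and stressed libraries did not overlap (log2 fold change 2.13, SE 0.48, adjusted p = 0.0236). None of the 11 overlapped between the groups, which held for 13.8% of all genes. The Fkbp5 call was lost without seizure 1, and those of Sgk1 and Il1a without either seizure library or some immobilization libraries.

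Plek, a protein kinase C substrate of blood and immune cells, was at 439.6 and 622 CPM after seizure and 217, 208, 168 and 264 after immobilization (log2 fold change 1.43, SE 0.23, adjusted p = 3.60e-04). G530011O06Rik was at 107 and 124 after seizure, near the naive values, and separated the groups in full (log2 fold change 2.60, SE 0.47, adjusted p = 0.00111); this is the 1 call of the 11 that held whichever library was left out. Plek lost its call without seizure 2. The count was 3 without seizure 1, 6 without seizure 2 or immobilization 1, 7 without immobilization 2, 17 without naive 5 and 19 without naive 3. Without lymphocyte-marker cells it was 18.

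Immobilization and odor exposure differed in 18 genes, 11 higher after immobilization (0.169%) and 7 after odor (0.108%), 0.277% in all (edgeR), with 345 at an unadjusted p under 0.05. DESeq2 called 2 of all genes. Libraries did not overlap for 10 of the 18 and for 3.49% of all genes. Tsc22d3 was higher in every immobilization library than in every odor library (log2 fold change 1.22, adjusted p = 1.92e-04) and was the call that held whichever library was left out. Nfkbia was at 753, 815, 1001 and 792 CPM after immobilization and 265, 568, 403 and 168 after odor exposure, without overlap (log2 fold change 1.10, SE 0.20, adjusted p = 0.00283). Rgs1 was at 169.7, 149, 145 and 132 against 18.3, 60.2, 70.2 and 84.2 (log2 fold change 1.54, SE 0.32, adjusted p = 0.00915). Ddit4 was higher too (adjusted p = 0.00568), though odor 2 lay above immobilization 4. These 3 calls were lost without odor 1, and that of Rgs1 also without immobilization 1. The count was 5 without odor 1 and 9 without immobilization 1 or 3.

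Microglial responses were then set against those of astrocytes and endothelial cells, in which Tsc22d3, Ddit4 and Nfkbia were also found. In 1 model per pair, with the library as a block, the seizure response differed from that of astrocytes in 10 of 8622 genes (0.116%) and the immobilization response in 21 (0.244%). Against endothelial cells it was 8 of 6153 (0.13%) and 17 (0.276%). Ddit4 was called in all 4 tests. After immobilization it went from 42.0 ± 42.0 to 788 ± 179.9 CPM in microglia, from 146 ± 10.3 to 259 ± 34.0 in astrocytes and from 234 ± 82.5 to 655 ± 246 in endothelial cells (means ± SD, n = 5 and 4). The step in microglia was larger by a difference of log2 fold changes of 3.17, SE 0.30, adjusted p = 2.51e-22 against astrocytes, and by a difference of log2 fold changes of 2.42, SE 0.36, adjusted p = 2.81e-06 against endothelial cells. Naive microglia had the lowest mean of the 3 classes.

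Tsc22d3 had a larger fold change in microglia than in endothelial cells. In microglia it went from 113 ± 52.4 to 1052 ± 281 CPM after immobilization. In endothelial cells it went from 494 ± 251 to 1609 ± 374, higher in both groups and a larger step in CPM. The difference of log2 fold changes was 1.32 (SE 0.30, adjusted p = 0.0107 in edgeR). That call was lost without naive 2, immobilization 1 or immobilization 3. Against astrocytes Tsc22d3 was not called after immobilization. After seizure it was, with a difference of log2 fold changes of 1.29 (adjusted p = 0.0448 in edgeR). This seizure call was lost without naive 2, naive 4, seizure 1 or seizure 2. Nrros moved in opposite directions: it fell from 159.8 ± 19.3 to 52.3 ± 9.52 in microglia and went from 16.3 ± 8.20 to 65.3 ± 2.77 in astrocytes after immobilization (a difference of log2 fold changes of -3.54, SE 0.40, adjusted p = 5.32e-15). Junb and Cdkn1a had the larger fold change in astrocytes, where their naive means were lower than in microglia. Junb, an immediate early factor, went from 4.70 ± 5.18 to 72.7 ± 21.2 in astrocytes after seizure and from 163 ± 58.5 to 271 ± 27.2 in microglia (a difference of log2 fold changes of -2.93, SE 0.45, adjusted p = 2.72e-07). Cdkn1a, an inhibitor of the cell cycle, went from 10.7 ± 10.1 to 100.3 ± 47.0 in astrocytes after immobilization and from 66.5 ± 22.02 to 57.0 ± 19.2 in microglia (a difference of log2 fold changes of -3.34, SE 0.44, adjusted p = 1.31e-10). The Ddit4 difference from endothelial cells after seizure was lost without seizure 2. The count for seizure against astrocytes was 5 without seizure 1 and 6 without seizure 2 or naive 2, and that for immobilization 13 without immobilization 1. Against endothelial cells the seizure count was 4 without seizure 2 and 5 without seizure 1, naive 1 or naive 4.

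The dissociation table sets microglia of the conventional libraries beside those of the Act-Seq libraries. With so few libraries, the method cannot be told apart from other differences between them. Cells of this table carry no class from the authors, so they were clustered, and 1 cluster led by Selplg, Cx3cr1, P2ry12, Gpr34 and Tmem119 was called microglia-like. It held 197 cells of saline 7, 151 of seizure 1 and 114 of seizure 2 by Act-Seq, and 180 of saline_conventional 1 and 130 of seizure_conventional 1. All 2900 seizure cells of this table had the same counts, over 15244 shared genes, as cells of the same library in the table of all cells, although none shared a barcode. Of the 283 authors' microglia among them 265 fell in the cluster, and no cell of another class did. The seizure libraries here are thus no further replicates.

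Conventional dissociation was marked by immediate early genes and chemokines. The model used here leaves 2 residual degrees of freedom for the spread between libraries. In a model with terms for method and seizure over the 5 libraries, 153 genes were higher (3.25%) and 19 lower in conventional microglia-like cells, 3.66% of 4701 (edgeR), with 591 at an unadjusted p under 0.05, and DESeq2 called 76. The edgeR count was 95 without saline_conventional 1 and 105 without saline 7. Fos was at 4849 and 3904 CPM in the conventional libraries and at 12.98, 10.4 and 6.98 in saline 7, seizure 1 and seizure 2 (log2 fold change 8.73, SE 0.27, adjusted p = 5.09e-32). Egr1 was at 7924 and 6952 against 3.25, 36.3 and 41.9 and Jun at 8083 and 6891 against 185, 109 and 265. Of 20 immediate early genes tested 19 were higher, with a median log2 fold change of 4.37 beside -0.0015 over all genes. The methods did not overlap for any of the 3 factors.

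Ccl3, a chemokine that recruits monocytes, was at 2709 and 1032 against 6.49, 10.4 and 14.0 CPM, and Tnf, the inflammatory cytokine, at 736 and 449.6 against 12.98, 10.4 and 0 (log2 fold changes 7.65 and 6.06, adjusted p = 9.98e-26 and 3.13e-19). In total 8 of 14 chemokine and cytokine genes and 7 of 10 NF-kappaB feedback genes were higher, with medians of 2.22 and 2.88. Of the glucocorticoid responsive genes 9 of 13 were higher, but Tsc22d3 (adjusted p = 0.101) and Ddit4 (adjusted p = 0.597) did not pass. Nfkbia was at 6392 and 5547 against 259.7, 1062 and 1298 (log2 fold change 3.37, SE 0.25, adjusted p = 2.69e-16). Of the 4 identity genes P2ry12 was called lower, at 2665 and 2996 against 5612, 3917 and 4297 (log2 fold change -0.57, SE 0.16, adjusted p = 0.0198). That call was lost without saline 7, seizure 1 or saline_conventional 1. Cx3cr1 at 4101 and 4666 against 5122, 5062 and 4785 did not pass (adjusted p = 0.962), although both conventional libraries lay below the others. Of 22 homeostatic surface and secreted genes 2 were lower (P2ry12 and Selplg) and 0 higher. Their median log2 fold change was -0.29. The lysosomal genes (19) and the transcription factors (14) had 0 calls.

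**Figure D5:**
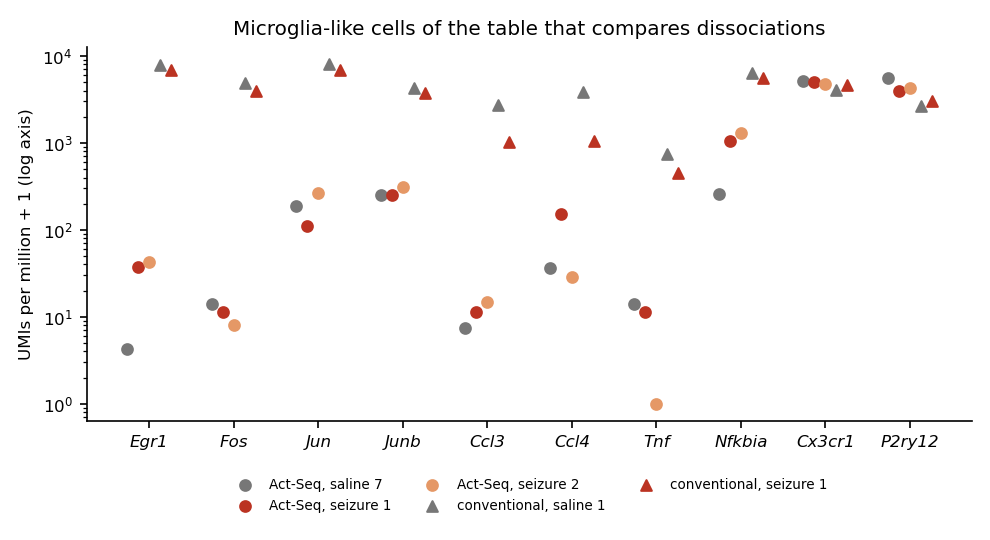
Levels of selected genes in microglia-like cells of the 5 libraries of the dissociation table, as CPM plus 1 on a log axis; each point is 1 library. The 2 conventional libraries lie far above the 3 Act-Seq libraries for Fos (4849 and 3904 against 12.98, 10.4 and 6.98) and, by a much smaller step, below them for Cx3cr1.

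Set against saline within the same model, 7 genes were higher after seizure (0.149%) and 8 lower, 0.319% in all (edgeR), with 276 at an unadjusted p under 0.05, and DESeq2 called 1. Ddit4 was at 77.9 in saline 7 and 71.6 in saline_conventional 1, and at 513, 488 and 312 in seizure 1, seizure 2 and seizure_conventional 1 (log2 fold change 2.42, SE 0.28, adjusted p = 5.56e-08). Saline and seizure libraries did not overlap, by either dissociation. Tsc22d3 was at 188 and 569 with saline and at 658, 1102 and 823 after seizure (log2 fold change 1.33, SE 0.25, adjusted p = 0.00326). Rgs1 and Arrdc3 were higher as well (adjusted p = 0.00326 and 1.76e-04). The calls of Tsc22d3, Rgs1 and Arrdc3 were lost without saline 7 and without seizure 1, and that of Ddit4 held without any 1 library. The count was 4 without seizure 1 and 24 without either conventional library. Nfkbia at an adjusted p of 0.211, Sgk1 at 0.304 and Per1 at 0.266 did not pass here. The model has no interaction term, so a single seizure step was fitted over both dissociations. By Act-Seq, Nfkbia was higher in both seizure libraries than in saline 7, as given above. It was far higher still in both conventional libraries, and the seizure step within Act-Seq alone was not tested. Among the lower genes were Il1b, Ccl3 and Atf3, whose log2 fold changes of -2.57, -1.34 and -1.35 turned sign without seizure_conventional 1, to 3.50, 0.82 and 0.51. Without saline_conventional 1 those of Ccl3 and Atf3 turned sign too, to 0.82 and 0.51, and Il1b was not tested, and DESeq2 put Il1b at 0.40.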

How the data were processed

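Drop-seq UMI counts per gene and cell were used as the authors deposited them, not normalized. Base calling used bcl2fastq 2.17.1.14 and alignment STAR 2.5.0a on mm10, per the submitters' processing notes; the counter and its use of strand stay unnamed (not given in the sources used here), and reads of genes that overlap may be shared between them. Cell types were the authors' classes. No doublet caller was run. Counts of microglia were summed per library, leaving out libraries under 10 microglia. All 15 libraries were fitted together in R 4.3.3 with edgeR 4.0.16 (TMM scaling, filterByExpr, quasi-likelihood F-test, Benjamini-Hochberg adjustment over all tested genes, called at 0.05). DESeq2 1.42.0 was an alternative, beside other filters, age as a covariate, a replicate block, subsets of cells and leaving out each library. Responses of microglia and another class were compared by an interaction with the library as a block. The dissociation table was clustered by the Leiden method (leidenalg 0.10.2, scanpy 1.11.5) at resolution 0.8, on 30 principal components of 2000 genes with 15 neighbours, and fitted with terms for method and seizure. Shares were compared by exact permutation tests in scipy 1.17.1. The fits were also run on simulated data with known changes, and the outcome is not given here.

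The members and gene lists were chosen with earlier results of these data known. Genes named were, per comparison, the 12 raised and 8 lowered called genes with the largest change and at least 20 CPM in the higher group, the called members of the gene lists, and for class and dissociation comparisons the 8 smallest p-values in each direction; those described in full are a choice among them, and a few others were chosen after their values were seen. Exact 95% intervals cover counting error only; total microglial UMIs per fitted library (22741 to 294647) set the precision. A few gene results are not reported here.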

Additional observations from a re-analysis of the deposited data

Results flagged for a closer look

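In groups of 4 or 5 libraries, 111 tests on 35 genes asked whether the highest or lowest library stood apart from the others (Dixon's criterion), and 11 did. Chance gives about 1 in 20. In naive 4 Cx3cr1 was high, at 6749 CPM, and so was P2ry12, at 4702 CPM. Naive 5, with 35 microglia, was low in Nfkbia, at 42.4 CPM, and high in Jun, at 382 CPM, and in Ccl5, at 403 CPM, where all Ccl5 UMIs came from 1 cell. Apod stood out in naive 3, at 166 CPM. Dusp1 stood out in naive 2, at 4.005 CPM, from 1 UMI, and in odor 4, at 56.1 CPM. Ccl4 and Ccl5 did in immobilization 1, at 3.39 CPM each, from 1 UMI each. Sult1a1 was low in immobilization 4, at 352 CPM, a library of 17 microglia.

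Responses that differed between microglia and another class, by a test of the difference in edgeR, were found for 10 genes after seizure and 21 after immobilization against astrocytes, and for 8 and 17 against endothelial cells. They include Ddit4 in all 4 comparisons.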

How the results depend on the processing

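Counts of called genes moved by over 1.5 times as follows. Odor against naive (6) gave 11 with no filter on low counts and 13 without microglia that held other-class marker UMIs. Seizure against immobilization (11) gave 3 by DESeq2, 18 with libraries of at least 50 microglia, 21 with no filter, 7 without microglia with macrophage marker UMIs, 21 without those with other-class marker UMIs and 18 without lymphocyte-marker cells. Immobilization against odor (18) gave 2 by DESeq2, conventional against Act-Seq (172) 76 and seizure against saline (15) 1. Leaving out each library gave 14 to 34 for seizure, 68 to 106 for immobilization and 4 to 8 for odor against naive, 3 to 19 for seizure against immobilization and 5 to 20 for immobilization against odor. It gave 5 to 12 and 13 to 31 against astrocytes and 4 to 11 and 12 to 21 against endothelial cells (seizure and immobilization), 95 to 206 for conventional against Act-Seq and 4 to 24 for seizure against saline. Differences in share from naive, in percentage points, ran from -1.82 to -0.26 for seizure, -1.51 to 0.0399 for immobilization and -1.17 to 0.385 for odor; odor was 0.241 without odor 4. Without libraries under 300 cells immobilization was 0.0871 and odor 0.244, and over cells outside the neuron class seizure was 0.898 and odor 0.190. Apod in immobilization ran from -0.20 to 4.45. For seizure against saline Atf3 ran from -1.77 to 0.51, Ccl3 from -1.46 to 0.82 and Il1b from -2.92 to 3.50, with 0.40 by DESeq2. The cause of these moves was not tested. No label pairs libraries by replicate number. Same-numbered libraries correlated at -0.056 to 0.0628 over 18 pairs, and 4 of 15 correlated best with their own number. The median was 0.013 for these pairs and -0.0017 for pairs with different numbers. Counts this sparse can give correlations near 0 either way, so they do not decide whether same-numbered libraries were handled together. With a replicate block the counts against naive were 27, 90 and 7, with 19 for seizure against immobilization and 19 for immobilization against odor. Removing macrophage-pattern or lymphocyte-marker cells was chosen after seeing the data. Depth limits low genes: 22741 UMIs in immobilization 4 put 1 UMI at 44.0 CPM.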
